A study of Mus musculus with 9 samples.

Results

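Keratins and desmosome genes are the genes of the epithelial cytoskeleton and of the junctions that anchor it. Here they were taken as the protein-coding genes whose symbol is Krt followed by a number, or that encode a desmoglein, a desmocollin or plakophilin 1, 2 or 3, together with Dsp, Jup, Evpl and Ppl. This rule used names only and gave 65 genes of the 49671 counted, namely 49 keratins and 16 desmosome and plakin genes. One further symbol of the rule, Krt74, is not annotated as protein-coding and was left out.

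The libraries were RNA-seq of KIT+CD45- cells sorted from the dermis of body skin of wild-type female C57BL/6 mice, that is, cells bearing the stem cell factor receptor KIT and lacking the leukocyte marker CD45. They fell into 3 groups. Melanoblasts, the melanocyte precursors, came from newborns at postnatal day 0.5 (3 libraries). Quiescent stem cells of the melanocyte lineage (McSC) came from adults aged 8 to 10 weeks (4 libraries) and from mice aged 24 months (2 libraries). Adult and aged skin was in telogen, the resting stage of the hair cycle, and each library pooled cells from several animals. The aged mice came from a separate aged-rodent colony at 21 months and were kept to 24 months beside the others, so age and colony of origin cannot be told apart. P-values measure the spread between such pools.

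Keratins form intermediate filaments as obligate pairs of an acidic type I and a basic type II chain, and the pair in use marks the epithelial layer: KRT5 with KRT14 in basal keratinocytes, KRT1 with KRT10 above them, KRT8 with KRT18 in simple epithelia. Desmosomes tie these filaments to the cell border. Desmogleins and desmocollins span the gap between cells, plakoglobin (Jup) and the plakophilins bind their tails, and desmoplakin (Dsp) connects the plaque to keratin. In skin these genes are known from keratinocytes, the cells that surround the melanocyte lineage in the follicle; melanocytes descend from the neural crest and are classically described as lacking desmosomes.

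The promoters of 3 genes are shown because their genes belong to the basal, suprabasal and plaque roles that the results turn on; each is the 250 bases before the RefSeq start, 5′ to 3′ on the strand of the gene, in build GRCm38.p6. Capitals mark a match to a searched motif: a p53-family half-site in Krt5 (chr15:101712906-101713155, minus strand), the TATA box TATAAA in Krt10 (chr11:99389365-99389614, minus strand), and a p53-family half-site followed by the AP-2 motif GCCNNNGGC in Dsp (chr13:38151044-38151293, plus strand).
Krt5: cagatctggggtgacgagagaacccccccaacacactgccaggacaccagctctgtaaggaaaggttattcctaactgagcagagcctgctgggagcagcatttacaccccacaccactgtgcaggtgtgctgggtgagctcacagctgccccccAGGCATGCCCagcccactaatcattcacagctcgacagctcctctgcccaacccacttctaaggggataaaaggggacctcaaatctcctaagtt
Krt10: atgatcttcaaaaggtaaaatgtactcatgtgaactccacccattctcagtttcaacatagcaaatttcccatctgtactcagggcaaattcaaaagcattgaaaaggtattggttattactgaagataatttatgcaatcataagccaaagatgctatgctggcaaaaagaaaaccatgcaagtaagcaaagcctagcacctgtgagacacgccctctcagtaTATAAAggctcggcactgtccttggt
Dsp: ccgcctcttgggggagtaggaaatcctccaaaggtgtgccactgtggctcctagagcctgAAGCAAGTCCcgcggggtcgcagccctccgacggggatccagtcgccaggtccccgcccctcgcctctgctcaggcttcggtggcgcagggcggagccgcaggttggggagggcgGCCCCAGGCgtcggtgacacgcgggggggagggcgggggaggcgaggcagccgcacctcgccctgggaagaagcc

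A promoter was listed for 37 of the 65 genes, 35 keratins and 2 desmosome genes, and the search covered both strands. No matches overlapped in the 3 windows shown. TATAAA was found in 16 of the 37 (43.2%), all of them keratins, beside 13.0% of 27025 mouse promoters of the same length. The AP-1 motif TGANTCA was found in 1 of 37 (2.70%; 6.87% of all promoters), the AP-2 motif in 6 (16.2%; 13.6%) and the p53-family half-site in 4 (10.8%; 7.18%). These matches describe letters in a window and were not tied to binding or to expression.

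By position the keratins fell into 2 clusters. Of the 26 type I genes, 25 lay on chromosome 11, and the other, Krt18, lay on chromosome 15 next to its partner Krt8. All 23 type II genes lay on chromosome 15. Of the 16 desmosome and plakin genes, 9 (every desmoglein and desmocollin) lay on chromosome 18.

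Libraries held 12594770 to 33710117 counts, so that 3 counts, used as the detection floor, correspond to 0.117 to 0.187 CPM (library-size-scaled counts, using edgeR's TMM factors). A principal component analysis set the newborn libraries apart from the others on its first axis (56.7% of the variance), with melanoblast replicate 3 and adult replicate 2 away from the rest of their groups. Summed CPM of 12 melanocyte genes, among them Dct, lay between 17636 and 30909 in newborn libraries, between 5315 and 12708 in adult libraries and between 8573 and 9749 in aged libraries, so the labelled lineage was present in every library.

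The keratin and desmosome genes together took 0.0162 to 0.0198% of the counts in melanoblasts, 0.141 to 0.300% in adult McSC and 0.157 to 0.204% in aged McSC. Their summed level was 353, 294 and 192 CPM in the 3 newborn libraries, 1517, 1303, 2627 and 2046 CPM in the 4 adult libraries and 1350 and 1143 CPM in the 2 aged libraries. Adult and aged libraries all lay above the newborn ones, and adult replicate 3 was the highest. In these sorted bulk samples, fewer cells of a type and less RNA per cell cannot be told apart.

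**Figure D1:**
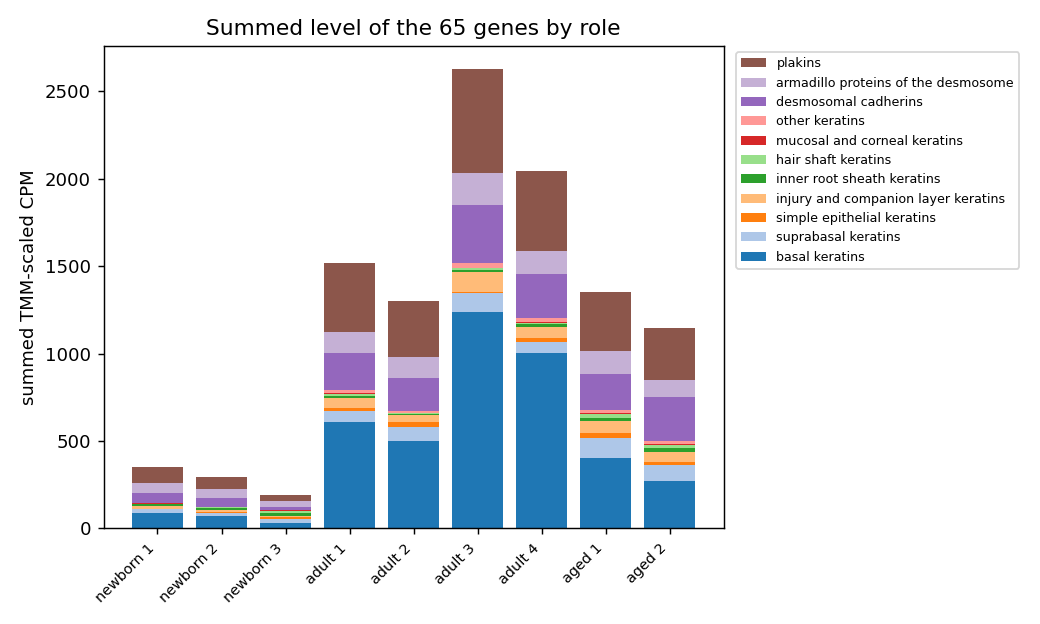
Summed TMM-scaled CPM of the 65 genes in each of the 9 libraries (linear axis from 0), stacked by role of the gene. The inner root sheath band also holds Krt74, which is not among the 65 genes. Without Krt74, newborn libraries sum to between 192 and 353 CPM and all adult and aged libraries to 1143 CPM or more. Basal keratins and plakins are the main bands.

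Adult McSC compared with melanoblasts asks how the program of the newborn precursor differs from that of the resting stem cell. Keratin and desmosome genes were higher in adult McSC across nearly the whole desmosome and in all 3 basal keratins. So were 5 of the 8 keratins grouped as suprabasal and 3 of the 4 injury and companion layer keratins. No hair shaft or inner root sheath keratin passed the test of all 9 libraries. That last count depends on the libraries: without melanoblast replicate 3 and adult replicate 2, which stand apart, 9 hair shaft keratins and 1 inner root sheath keratin were called higher. Of the 65 genes, 30 rose and 0 fell (edgeR quasi-likelihood test, Benjamini-Hochberg adjusted p under 0.05), beside 15.1% of all 31961 genes tested higher and 18.3% lower. At an unadjusted p under 0.05, 41 were higher and 0 lower, beside 44.7% of all genes in either direction, and DESeq2 and limma likewise called 0 lower (12.8% and 22.7% of all genes). The rise covered 15 of 49 keratins and 15 of 16 desmosome and plakin genes. The median log2 fold change was 1.64 over the 65 genes and 0.39 over all genes tested. It was 1.71 over 971 olfactory and vomeronasal receptor genes, the low-level reference described below, of which 938 had a positive value. A median of this size was therefore not particular to keratin and desmosome genes. Adult and newborn values did not overlap in 34 of the 65 genes, all higher in adult, including all 16 desmosome and plakin genes (19.5% of all genes were higher and 19.8% lower without overlap). With scaling on abundant genes only, the median over every tested gene was 1.15 in place of 0.39, and over the 65 genes 2.38 in place of 1.64. Without melanoblast replicate 3 and adult replicate 2, 47 of the 65 genes rose, and the share of all genes called higher was 25.6%.

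All 3 keratins of the basal layer rose, with a median log2 fold change of 3.37. Krt5, the type II chain of basal keratinocytes, measured 52.3, 37.9 and 22.3 CPM in melanoblasts and 261, 227, 576 and 487 CPM in adult McSC. Every adult value was over 4 times the highest newborn value, and the log2 fold change was 3.37 ± 0.36 (SE; adjusted p = 2.92e-07). Krt14, its type I partner, measured 20.2, 19.2 and 5.72 CPM in melanoblasts and 108, 65.8, 142 and 102 CPM in adult McSC, again with no overlap (log2 fold change 2.80 ± 0.37, adjusted p = 7.17e-06). Krt15, a type I keratin known from the bulge, the stem cell niche of the follicle, measured 15.5, 13.4 and 5.72 CPM in melanoblasts. Its adult values were 237, 204, 522 and 418 CPM. This was the largest fold change among the 65 genes, 4.91 ± 0.39 on the log2 scale (adjusted p = 4.55e-09). For all 3 genes adult replicate 3 was highest and adult replicate 2 lowest, and melanoblast replicate 3 was the lowest newborn library.

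Set per kilobase of exon, the mean level in adult McSC was 195 CPM per kb for Krt15, 176 for Krt5 and 59.5 for Krt14. In melanoblasts the order was Krt5 (17.1), Krt14 (8.56) and Krt15 (6.53). Krt14 and Krt15 together stood at 20.2, 18.5 and 6.49 CPM per kb in melanoblasts, where Krt5 stood at 23.8, 17.3 and 10.1. In adult McSC the type I pair stood at 195, 153, 376 and 294 CPM per kb and Krt5 at 119, 103, 262 and 221. The type I sum was therefore above Krt5 in 4 of 4 adult libraries and in 1 of 3 newborn libraries. Over all 49 keratins the ratio of type I to type II, per kb, was 0.784 to 1.33 in melanoblasts, 1.44 to 1.63 in adult McSC and 1.42 to 1.54 in aged McSC. These ratios were not tested.

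Of the 8 suprabasal and differentiation keratins, 5 rose. Krt10, the type I keratin of the spinous layers, measured 3.17, 3.49 and 1.76 CPM in melanoblasts and 11.0, 14.3, 14.4 and 11.8 CPM in adult McSC (log2 fold change 2.20 ± 0.29, adjusted p = 3.56e-06). The adult values were tight and lay above all newborn ones. Krt1, its type II partner, went from 3.00 ± 1.09 to 9.30 ± 2.26 CPM (SD, n = 3 and 4; log2 fold change 1.64, adjusted p = 0.000763). Krt77, a type II keratin known from sweat gland ducts, measured 0.622, 0.678 and 3.51 CPM in melanoblasts and 22.0, 36.7, 51.1 and 18.7 CPM in adult McSC. Melanoblast replicate 3 was the highest newborn library for Krt77, unlike for the basal keratins, and the log2 fold change was 4.29 ± 0.54 (adjusted p = 1.42e-05). Krt80, a widely expressed type II keratin, rose least, from 8.47 ± 2.52 to 16.5 ± 4.96 CPM (SD; log2 fold change 0.96 ± 0.29, adjusted p = 0.0116). That call was lost without melanoblast replicate 2 (adjusted p = 0.0634) and without adult replicate 3 (0.0747). Of the 30 genes that rose, 29 did so by at least 2-fold, and Krt80 was the exception. Krt23 rose at a low level, from 0.198 to 1.12 CPM (adjusted p = 0.012). Krt78 missed the threshold, with means of 2.01 and 3.23 CPM (log2 fold change 0.68, adjusted p = 0.273). It passed in limma (adjusted p = 0.0407), without melanoblast replicate 3 (1.59, adjusted p = 0.00973) and without the 2 libraries that stand apart (1.79, adjusted p = 0.0036).

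Among keratins of injury and of the companion layer, which lies inside the outer root sheath, 3 of 4 rose. Krt17, induced in wounded epidermis and present in follicle epithelium, measured 6.72, 5.73 and 4.17 CPM in melanoblasts and 26.0, 18.9, 48.6 and 40.3 CPM in adult McSC (log2 fold change 2.60 ± 0.31, adjusted p = 8.48e-07). Krt79, a marker of the upper follicle, measured 4.05, 3.81 and 1.81 CPM in melanoblasts and 23.0, 13.1, 60.0 and 16.2 CPM in adult McSC (3.13 ± 0.47, adjusted p = 5.31e-05). Adult replicate 3 stood far above the other 3 for Krt79. Krt75, a companion layer keratin, was at 0.496 and 1.76 CPM with an adjusted p of 0.0497, its groups overlapped, and its call was lost without any 1 of melanoblast replicates 1 and 2, adult replicates 1, 2 and 4 and both aged replicates. Krt24, a type I keratin, measured 1.18, 0.156 and 0.502 CPM in melanoblasts and 13.3, 5.77, 25.0 and 20.9 CPM in adult McSC (log2 fold change 4.76 ± 0.55, adjusted p = 1.49e-06), so that the lowest adult value was above every newborn one.

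None of the 13 hair shaft keratins, the 7 inner root sheath keratins and the 4 mucosal and corneal keratins passed the edgeR test of all 9 libraries. Other settings called some of these 24 genes higher: 8 without melanoblast replicate 3 (5 hair shaft genes, with Krt72, Krt4 and Krt76), 12 without the 2 libraries that stand apart (9 hair shaft genes and the same other 3), 8 in limma, 3 with abundant-gene scaling, 2 in DESeq2 (Krt39 and Krt83) and 1 with no filter (Krt83). One, Krt27, was called lower without melanoblast replicate 3. Log2 fold changes ran from -1.33 to 0.27 for the inner root sheath genes and from -0.75 to 2.35 for the hair shaft genes. Adult means in these 3 groups were 0.289 to 2.20 CPM. A low-level reference was taken from 1431 olfactory and vomeronasal receptor genes, named for the nose and the vomeronasal organ. Whether skin cells use some of them was not tested. The 95th percentile of their group means was 0.857 CPM in melanoblasts, 1.94 CPM in adult McSC and 2.37 CPM in aged McSC. Above that level lay 39 of the 65 genes in melanoblasts, 34 in adult and 38 in aged McSC. Of the 30 genes that rose, 27 lay above it in adult McSC and 3 (Krt222, Krt75 and Krt23) at or below it; Krt222 lost its call without melanoblast replicate 1. The receptor genes moved too: 270 of the 971 tested rose and 1 fell, and their summed level was 272 to 457 CPM in newborn libraries, 652 to 1139 CPM in adult libraries and 971 to 1147 CPM in aged libraries. The part of this shift in the low keratins was not tested.

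**Figure D2:**
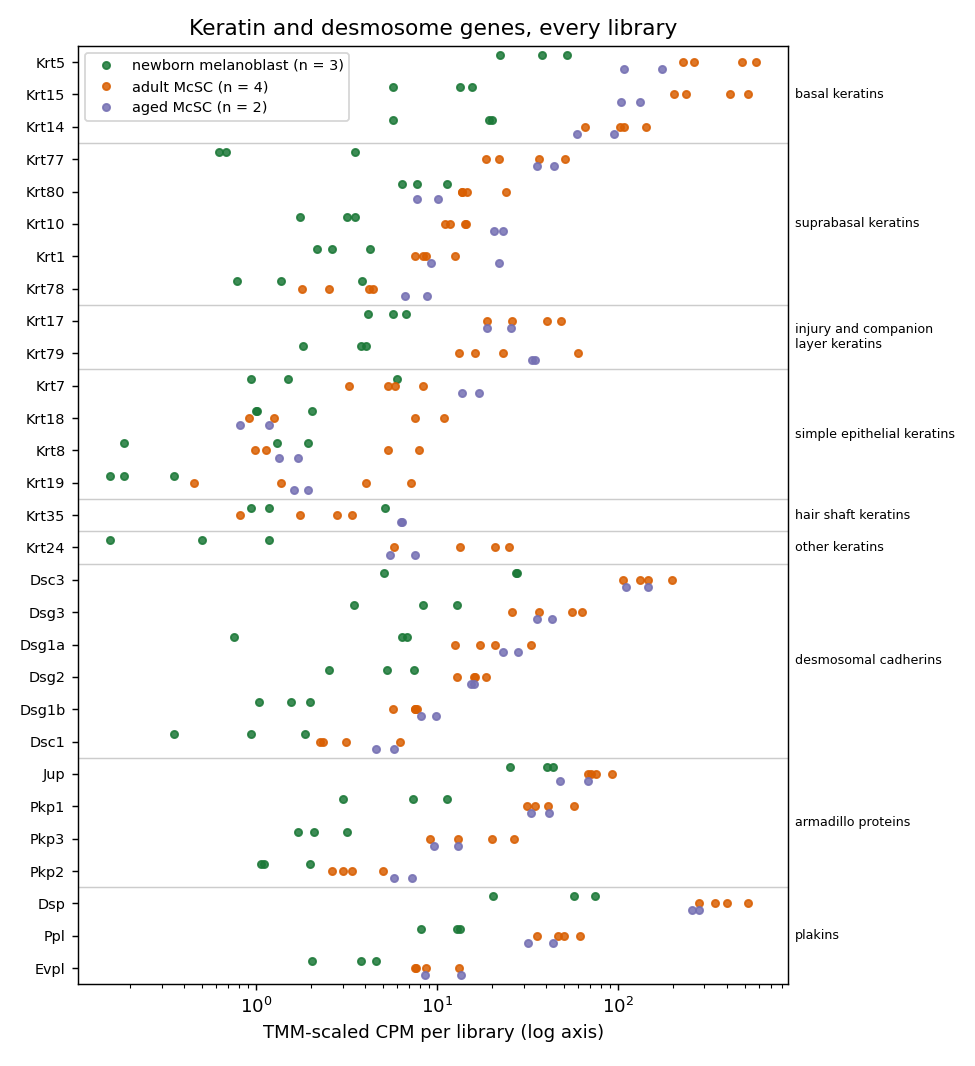
TMM-scaled CPM (log axis) of the 27 genes that reach a mean of 5 CPM in any group, with Krt8 and Krt19, in every newborn (3), adult (4) and aged (2) library; each point is 1 library and rows are grouped by role. Basal keratins, desmosomal genes and plakins show adult points to the right of all newborn points, and for Krt5 and Krt15 the 2 aged points lie between.

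The desmosomal cadherins rose in 8 of 9 cases. Dsc3, the desmocollin of the basal layer, measured 27.5, 27.3 and 5.07 CPM in melanoblasts and 132, 107, 198 and 147 CPM in adult McSC (log2 fold change 2.87 ± 0.43, adjusted p = 5.81e-05). Dsg3, the basal desmoglein and the target of autoantibodies in pemphigus vulgaris, measured 12.8, 8.34 and 3.46 CPM in melanoblasts and 26.0, 36.3, 63.1 and 55.7 CPM in adult McSC (2.47 ± 0.37, adjusted p = 2.64e-05). In both, melanoblast replicate 3 was the lowest library and no newborn value reached an adult one. Dsg1a and Dsg1b, desmogleins of the upper layers, rose by 2.18 and 2.23 on the log2 scale, and Dsg2, found in simple epithelia and in the lower follicle, by 1.65, from 5.07 ± 2.45 to 15.9 ± 2.35 CPM (SD; adjusted p = 0.000199). Dsc1 (1.05 to 3.49 CPM), Dsc2 (0.891 to 2.73 CPM) and Dsg4 (0.691 to 2.07 CPM), the last a desmoglein of the hair shaft, rose from low levels. Dsc1 lost its call without adult replicate 3 (adjusted p = 0.0861), Dsc2 without melanoblast replicate 1 or 2, and Dsg4 without melanoblast replicate 1 or adult replicate 3. Dsg1c, at 0.751 and 1.67 CPM, was the cadherin that did not pass (adjusted p = 0.116), although its groups did not overlap. The mouse carries near-identical copies of Dsg1 in a row, so the split of reads among Dsg1a, Dsg1b and Dsg1c is uncertain.

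All 4 armadillo proteins of the plaque and all 3 plakins rose. Dsp, desmoplakin, measured 74.9, 56.8 and 20.4 CPM in melanoblasts and 343, 280, 523 and 400 CPM in adult McSC. Its log2 fold change was 2.93 ± 0.34 (adjusted p = 8.44e-07), and the lowest adult library exceeded the highest newborn one by more than 3 times. Jup, plakoglobin, which also serves in adherens junctions, measured 43.4, 40.4 and 25.4 CPM in melanoblasts and 67.8, 75.5, 92.2 and 71.2 CPM in adult McSC, the smallest change of the plaque (1.07 ± 0.24, adjusted p = 0.00112). Pkp1, the plakophilin of stratified epidermis, went from 7.23 ± 4.16 to 40.8 ± 11.3 CPM (SD; 2.5 ± 0.34, adjusted p = 5.73e-06). Pkp3, present in most epithelia, measured 3.17, 2.08 and 1.71 CPM in melanoblasts and 13.0, 9.15, 26.7 and 20.1 CPM in adult McSC (2.90 ± 0.37, adjusted p = 1.53e-06). Pkp2, known from heart and simple epithelia, changed less, from 1.38 to 3.50 CPM (1.34 ± 0.43, adjusted p = 0.018), and its adjusted p was 0.0689 without melanoblast replicate 1, 0.0549 without adult replicate 2 and 0.0712 without the 2 libraries that stand apart. The plakins Ppl and Evpl, which scaffold the cornified envelope, rose by 2.08 ± 0.26 (adjusted p = 1.30e-06) and 1.41 ± 0.34 (adjusted p = 0.00247), Ppl from 12.9, 8.13 and 13.4 CPM to 46.7, 35.5, 61.9 and 50.2 CPM.

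**Figure D3:**
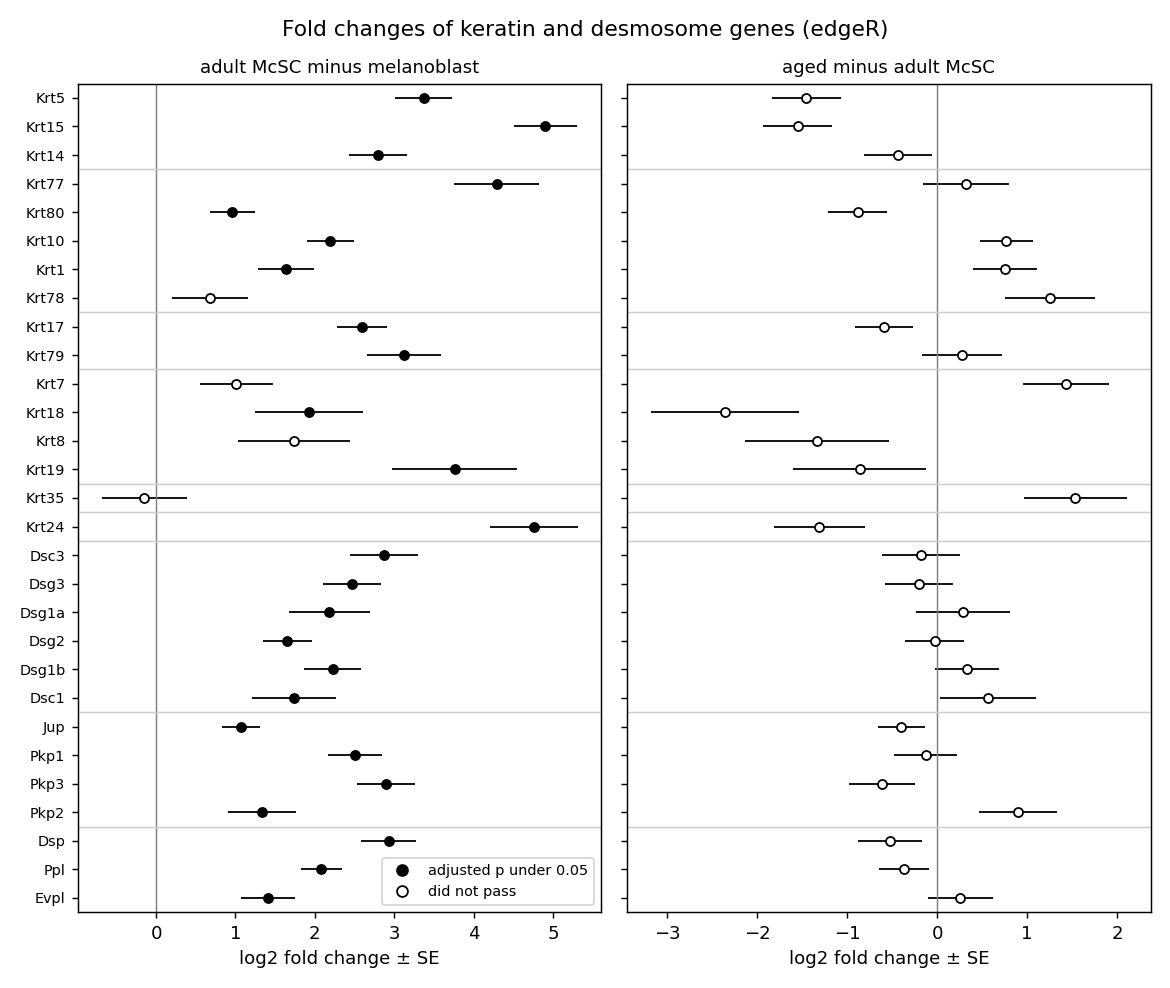
Log2 fold changes with SE from edgeR for the same genes, adult McSC minus melanoblast (left) and aged minus adult McSC (right); filled points passed an adjusted p under 0.05. On the left nearly all points lie above 0 and are filled, from 0.96 for Krt80 to 4.91 for Krt15, and on the right none is filled.

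Keratins of simple epithelia were uneven among the adult libraries. Krt18 measured 0.996, 2.03 and 1.00 CPM in melanoblasts, 1.25, 10.9, 0.908 and 7.53 CPM in adult McSC and 1.17 and 0.810 CPM in aged McSC. Krt8, its type II partner, measured 0.187, 1.93 and 1.30 CPM in melanoblasts, 1.13, 7.91, 0.990 and 5.37 CPM in adult McSC and 1.70 and 1.33 CPM in aged McSC. Krt19, a type I keratin of simple epithelia and of the bulge, measured 0.187, 0.156 and 0.351 CPM in melanoblasts, 1.36, 7.14, 0.454 and 4.04 CPM in adult McSC and 1.94 and 1.62 CPM in aged McSC. All 3 were high in adult replicates 2 and 4 and near the newborn level in adult replicate 3. The test called Krt19 (log2 fold change 3.76 ± 0.79, adjusted p = 0.000693) and Krt18 (1.93 ± 0.68, adjusted p = 0.0341) but not Krt8 (adjusted p = 0.0624). The Krt18 call rested on these libraries: its adjusted p was 0.16 without adult replicate 2, 0.0873 without adult replicate 4, 0.0986 and 0.144 without melanoblast replicates 1 and 3, 0.233 without the 2 libraries that stand apart, 0.0901 in DESeq2 and 0.446 in limma. Limma also did not call Krt19. Krt20 is a marker of Merkel cells, the touch cells of the epidermis. It measured 0.436, 0.678 and 0.552 CPM in melanoblasts, 2.45, 0.684, 1.53 and 1.12 CPM in adult McSC and 3.92 and 3.18 CPM in aged McSC. Adult and newborn values did not overlap, but the edgeR test of Krt20 missed the threshold (log2 fold change 1.37, adjusted p = 0.0693). It was called higher in DESeq2, with abundant-gene scaling, without adult replicate 2 and without the 2 libraries that stand apart. The 12 Merkel cell markers summed to 43.7, 20.2, 38.9 and 36.7 CPM in the 4 adult libraries and to 9.64 to 20.3 CPM in newborn libraries, and their part in these values was not tested. Krt7 had means of 2.80, 5.70 and 15.4 CPM in newborn, adult and aged cells, and its adult difference missed the threshold (adjusted p = 0.0949). It passed with abundant-gene scaling (log2 fold change 1.71, adjusted p = 0.0469), with no filter (1.15, 0.00967), in limma (1.80, 0.00184), without melanoblast replicate 3 (2.24, 0.000105) and without the 2 libraries that stand apart (2.43, 4.3e-05).

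**Figure D4:**
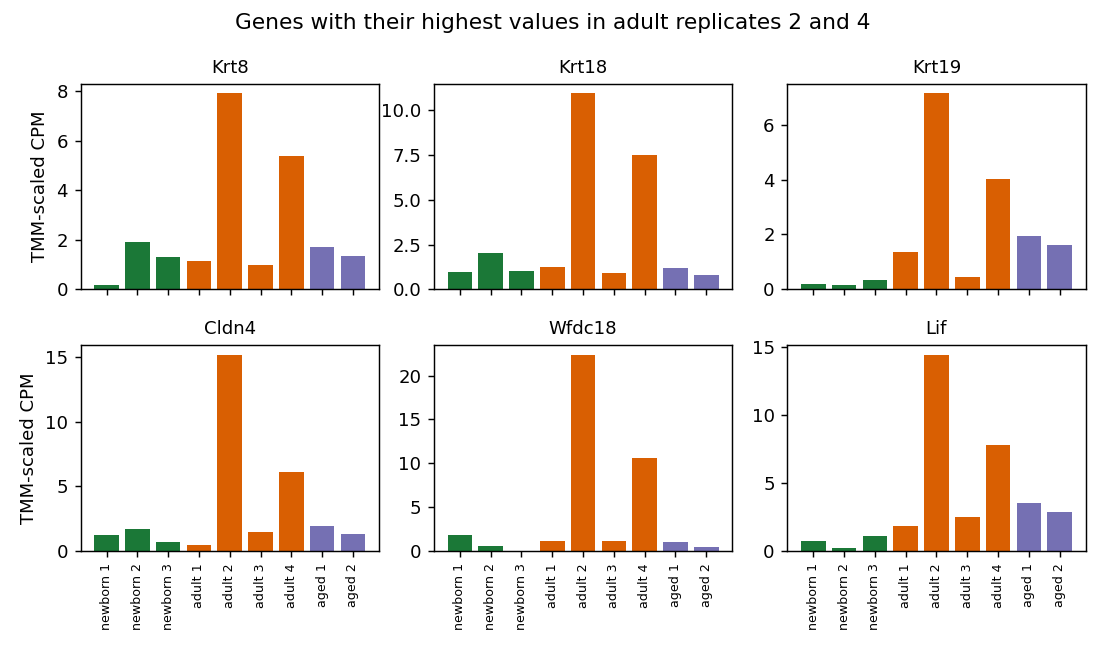
TMM-scaled CPM per library (bars from 0; each panel has its own scale) for Krt8, Krt18 and Krt19 and for Cldn4, Wfdc18 and Lif, the genes whose 2 highest libraries are the same and at least 2 times the third. Adult replicates 2 and 4 reach 10.9 and 7.53 CPM for Krt18 while the other 7 libraries lie at or below 2.03 CPM.

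Aged McSC were then compared with adult McSC, groups in which age and colony of origin cannot be told apart. No keratin or desmosome gene passed: 0 rose and 0 fell by edgeR, beside 0.0532% of all genes higher and 0.25% lower. At an unadjusted p under 0.05, 10 were higher and 5 lower, beside 10.2% of all genes in either direction. DESeq2 called 0 higher and 2 lower, beside 0.114% and 0.592% of all genes, and limma 9 higher and 2 lower, beside 2.66% and 2.10%. The median log2 fold change was 0.38 over the 65 genes and 0.08 over all genes. Aged values lay above all adult values in 20 of 65 genes and below them in 3, beside 15.5% and 12.1% of all genes.

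The 3 genes below all adult values, in TMM-scaled CPM, were Krt5, Krt15 and Krt80. The TMM factors were 1.52 and 1.38 in aged libraries and 1.09 to 1.21 in adult libraries. As a share of unscaled counts, Krt5 and Krt80 in aged replicate 1 (4332 and 249 of 16362560) lay above adult replicate 2 (5312 and 320 of 21572026). For these 2 genes the separation therefore depended on the scaling. Krt5 measured 175 and 108 CPM in aged McSC, against 227 CPM in the lowest adult library, a log2 fold change of -1.45 ± 0.38 (adjusted p = 0.145). Krt15 measured 132 and 104 CPM, against 204 CPM in the lowest adult library (-1.55 ± 0.39, adjusted p = 0.116). Both had an adjusted p under the threshold in DESeq2 (0.0178 and 0.0107) and limma (0.0433 and 0.0138), without melanoblast replicate 3 (0.0343 and 0.00987) and, in edgeR on all 9 libraries with no filter on low counts, 0.000241 and 4.61e-05; over all alternatives the adjusted p ran from 0.000241 to 0.956 for Krt5 and from 4.61e-05 to 0.956 for Krt15. Whether the difference exceeded the spread between libraries therefore depended on the filter, the tool and the libraries used. Krt14 was at 95.3 and 59.0 CPM, inside or just below the adult range of 65.8 to 142 CPM. Of the summed level of the 65 genes, the 3 basal keratins made up 17.5 to 24.9% in newborn libraries, 38.2 to 49.2% in adult libraries and 23.7 to 29.8% in aged libraries.

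Of the 8 suprabasal keratins, 7 had a positive fold change in aged McSC and none passed. Among all 65 genes, 45 had a positive fold change. These were 12 of the 27 genes that reach a mean of 5 CPM in any group and 33 of the 38 below that level. Of the 971 receptor genes tested, 559 had a positive fold change, and the median over all genes was 0.08. Of the 5 simple epithelial keratins, 2 had a positive fold change, Krt7 and Krt20. The values were -2.36 for Krt18, -1.34 for Krt8 and -0.86 for Krt19, and none passed. In edgeR with no filter, Krt18 was called lower (-2.39, adjusted p = 0.0132), as was Krt24 (-1.35, adjusted p = 0.0456). Krt24 measured 7.56 and 5.50 CPM in aged McSC, against 5.77 to 25.0 CPM in adult McSC. Krt10 measured 23.2 and 20.6 CPM, against 11.0 to 14.4 CPM in adult McSC (log2 fold change 0.77 ± 0.29, adjusted p = 0.383). Krt7 measured 17.1 and 13.7 CPM, against 3.25 to 8.30 CPM (1.43 ± 0.48, adjusted p = 0.303). Krt7 had an adjusted p under the threshold in limma (0.00296), with the 2 groups fitted alone (0.0178), with no filter (0.0272) and without melanoblast replicate 3 (0.0265). Krt78 (8.77 and 6.66 CPM; adult 1.80 to 4.40 CPM) and Krt35, a hair shaft keratin (6.31 and 6.42 CPM; adult 0.813 to 3.39 CPM), also lay above every adult library, with adjusted p of 0.412 and 0.378. Krt10, Krt78 and Krt35 were among the 9 genes that limma called higher. Krt1 measured 22.0 CPM in aged replicate 1 and 9.26 CPM in aged replicate 2, so its mean of 15.6 CPM rested on 1 library. Among desmosome genes the fold changes were small, from -0.61 for Pkp3 to 0.90 for Pkp2. Dsp was at 281 and 257 CPM and Dsc3 at 110 and 147 CPM, both within or near the adult range.

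Aged McSC were also set against melanoblasts, a comparison that shares its libraries with the 2 above. In it, 41 of 65 genes rose and 0 fell (47 and 0 at an unadjusted p under 0.05, beside 50.8% of all genes in either direction; DESeq2 and limma called 0 lower), beside 20.4% of all genes higher and 20.3% lower, and the median log2 fold change was 1.98 against 0.70 for all genes. Over the receptor genes tested the median was 1.75. Among the 65 genes, values did not overlap in 51, all higher in aged McSC, beside 40.4% of all genes higher and 25.7% lower. The log2 rise was 2.97 for Krt10 (adjusted p = 4e-07), 4.61 for Krt77 (1.76e-05) and 2.45 for Krt7 (0.00115). Jup, which had risen in adult McSC, did not pass here (0.68, adjusted p = 0.0501), nor did Krt80 (0.08, adjusted p = 0.861). Of the 41 genes, 10 were at or below the receptor level in aged McSC.

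Neighbouring epithelial genes that the naming rule left out were read from the same fit, adult McSC against melanoblasts. The counts below stand beside 15.1% of all genes higher and 18.3% lower. Of 4 desmosome partners, 2 rose and 0 fell: Perp, a membrane protein of desmosomes, from 21.4 to 176 CPM (log2 fold change 3.04 ± 0.53, adjusted p = 0.000707), and corneodesmosin (Cdsn) from 0.328 to 1.57 CPM (2.21, adjusted p = 0.0148). Krt6a, a wound keratin with close copies, rose from 0.392 to 4.11 CPM (3.36, adjusted p = 2.75e-05), 1 of 4 keratins with a letter in the name. Of 56 keratin-associated protein genes, 23 had enough counts to test, and 6 rose and 0 fell; Krtap17-1 reached 1.10 CPM in adult McSC.

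Of 12 hemidesmosome and basement membrane genes, which anchor basal cells to the matrix, 8 rose and 0 fell, with a median log2 fold change of 1.71. Col17a1, collagen XVII, measured 21.0, 22.2 and 16.8 CPM in melanoblasts and 221, 212, 396 and 357 CPM in adult McSC (3.89 ± 0.29, adjusted p = 2.81e-10). Itgb4, integrin β4, rose by 3.00 and Lamb3, a chain of laminin-332, by 2.82. In aged McSC Col17a1 stood at 156 and 109 CPM and Itgb4 at 38.7 and 27.0 CPM, below every adult library, as Krt5 and Krt15 did, and neither passed (adjusted p = 0.116 and 0.136).

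Of 18 epithelial cell-adhesion genes, 11 rose and 1 fell (median 1.45). Epcam rose from 3.62 to 23.9 CPM and Cldn1, a tight junction claudin, from 9.40 to 69.0 CPM. The gene that fell was Cdh1, E-cadherin, which melanocytes themselves use to hold on to keratinocytes: its log2 fold change was -2.41 ± 0.25 (adjusted p = 5.81e-08) and its adult values were 240, 469, 332 and 374 CPM. Of 18 epidermal transcription factors, 11 rose and 2 fell, among the former Trp63, the master regulator of stratified epithelium, at 29.3, 16.7 and 7.23 CPM in melanoblasts and 94.3, 69.8, 138 and 117 CPM in adult McSC (2.57 ± 0.35, adjusted p = 1.08e-05), Gata3 (2.65) and Grhl1 (2.20). Of 26 cornified envelope and late differentiation genes tested, 15 rose and 0 fell, led by Tgm5, a transglutaminase, from 1.77 to 78.8 CPM (5.47 ± 0.33, adjusted p = 1e-11), Aqp3 (3.39) and Dmkn (2.85). Of 17 genes of the follicle bulge and germ, 10 rose and 3 fell: Plet1 rose by 4.44 and Sox9 by 3.33, and Npnt, nephronectin, had a log2 fold change of -3.05. Among all these lists 1 gene passed in aged against adult McSC, Cd34, which was lower (-2.11, adjusted p = 0.038).

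Markers of other skin cells were read from the same fit, in which 15.1% of all genes were higher in adult McSC and 18.3% lower. Their directions differed between cell types. Of 16 keratinocyte markers that are not among the 65 genes, 14 rose and 1 fell in adult McSC (median 2.71). With Cdh1 among them, their summed level was 1650 to 2451 CPM in newborn libraries, 1248 to 1707 CPM in adult libraries and 977 to 1054 CPM in aged libraries. Without Cdh1 the other 15 summed to 171 to 349 CPM in newborn libraries, 800.5 to 1376 CPM in adult libraries and 661 to 726 CPM in aged libraries, with every adult library above every newborn and aged one. Melanocyte genes went the other way: 0 of 12 rose and 10 fell, with Dct at a log2 fold change of -1.51 and Gpnmb at -1.50. Of 11 endothelial markers 6 rose and 0 fell, of 9 Schwann cell markers 5 rose and 0 fell, of 8 gland markers 1 rose and 1 fell (Scd1 3.52, Mgst1 -0.89), of 11 Merkel cell markers 2 rose and 0 fell, of 6 immune markers 2 rose and 0 fell (Ptprc, which encodes CD45, 1.70 to 5.74 CPM), of 8 mast cell markers 0 rose and 2 fell, and of 10 fibroblast markers 2 rose and 6 fell. Summed levels in newborn, adult and aged libraries were 63.7 to 108, 96.6 to 338 and 75.9 to 84.2 CPM for endothelium, 376 to 542, 753 to 1241 and 296 to 347 CPM for Schwann cells, and 620 to 2263, 506 to 990 and 144 to 265 CPM for fibroblasts. In the same order they were 60.4 to 94.2, 199 to 315 and 149 to 212 CPM for glands, 9.64 to 20.3, 20.2 to 43.7 and 41.5 to 44.4 CPM for Merkel cells, 16.3 to 32.8, 32.0 to 47.9 and 48.6 to 59.1 CPM for immune cells, and 20.3 to 34.3, 10.3 to 15.8 and 12.6 to 14.2 CPM for mast cells. The 15 keratinocyte markers without Cdh1 summed to 1009, 800.5, 1376 and 1132 CPM in adult replicates 1 to 4. The 3 basal keratins summed to 606, 497, 1240 and 1006 CPM, so both sums ranked the adult libraries in the same order. Adult replicate 3, highest for Krt5, Krt15 and Krt79, was also the highest endothelial library, with Pecam1 at 79.3 CPM against 22.4 to 35.3 CPM in the other adult libraries. No marker in these lists was at 0 in all 9 libraries. In aged against adult McSC, 6 of 9 Schwann cell markers (among them Mbp), 3 of 10 fibroblast markers (Col1a1, Col1a2 and Col3a1) and 1 of 16 keratinocyte markers (Cd34) fell, beside 0.25% of all genes, in the comparison where Krt5 and Krt15 lay below every adult library. The part of other cells in the keratin and desmosome results was not tested.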

How the data were processed

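KIT+CD45- dermal cells were sequenced in 9 libraries. The authors deposited raw counts per Ensembl gene; per the submitters' processing notes, Trimmomatic 0.36, FastQC 0.11.8, STAR 2.5.2, SAMtools 1.9, DESeq2 1.22.2 and build mm10 were used. How reads were counted (program, annotation, strand, multi-mapping) is not given in the sources used here, so close copies and overlapping genes are uncertain, and per the labels the cDNA was amplified before library construction. Symbols and exon lengths came from GENCODE M21 (49412 of 49671 IDs matched). Counts were filtered with filterByExpr (31961 genes kept, all 65 members), scaled by TMM and tested with edgeR 4.0.16 (R 4.3.3; quasi-likelihood F test, robust, all 9 libraries in 1 model), after the test was tried on simulated data. Alternatives were other scalings, no filter, a stricter filter (5 CPM in 2 libraries), DESeq2 1.42.0, limma 3.58.1, only the 2 groups compared, a replicate block and libraries left out. Genes with a group mean of at least 5 CPM were named (27), other members where they passed, and up to 3 genes per related list by smallest p or 2 per marker list by level; Krt8, Krt20, Krt27, Krt4, Krt39, Krt72, Krt76, Krt83, Dsg1c, Ptprc and Cd34, and the aged-library markers Mbp, Col1a1, Col1a2 and Col3a1, were chosen after their values were seen. Members and lists were chosen with earlier results of these data known. Replicates differed beyond sampling noise (chi-square over its degrees of freedom, 17.5 to 75.1).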

Additional observations from a re-analysis of the deposited data

Results flagged for a closer look

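In 2 of 27 genes looked at, 1 of the 4 adult libraries lay far from the other 3 (gap to the nearest library, over the whole range, above Dixon's critical value); about 1 in 20 such groups is expected to do so by chance. Krt80 measured 23.9 CPM in adult replicate 3 and 13.7, 13.8 and 14.6 CPM in the others (gap over range 0.913). Dsg1b measured 5.69 CPM in adult replicate 1 and 7.57, 7.58 and 7.76 CPM in the others (0.909).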

How the results depend on the processing

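Of the 30 genes called higher in adult McSC than in melanoblasts, 24 to 30 were called under each alternative; the count was 47 without the 2 libraries that stand apart and 24 to 43 with 1 library left out, and 1 gene, Krt27, was lower without melanoblast replicate 3 (0 to 1 over such fits). The median log2 fold change became 2.38 with abundant-gene factors, 2.63 under the stricter filter (30 genes), 2.19 without the 2 libraries and 1.5 to 2.07 with 1 left out. Aged against adult, the count higher was 1 with no filter, 9 in limma, 1 with the 2 groups alone and 0 to 1 with 1 library left out; the count lower was 4, 2 and 1 under the same settings, 2 in DESeq2, 2 without the 2 libraries and 0 to 2 with 1 left out. Its median was 0.29 with RLE factors, 0.70 with abundant genes, 0.31 with no filter, 0.12 with the stricter filter, 0.29 in DESeq2, 0.46 in limma, 0.29 without the 2 libraries and 0.21 to 0.55 with 1 left out; the median of all genes moved from 0.08 to 0.42 with abundant genes. Aged against melanoblasts, 27 genes were higher with the stricter filter and 26 to 49 with 1 library left out (26 without aged replicate 1); the median was 2.99 with abundant genes (all genes 0.70 to 1.78), 3.02 with the stricter filter, 2.28 in limma, 2.39 without the 2 libraries and 1.93 to 2.39 with 1 left out. The stricter filter tests fewer genes; for the other settings the cause was not tested.

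Directions reversed for small differences. Krt35, adult against melanoblasts, became 0.56 with abundant genes, 0.30 with the stricter filter, 0.62 in limma, 1.05 and 0.13 without melanoblast replicate 3 and adult replicate 2, and 1.32 without both. Aged against adult, with abundant genes, the stricter filter and without adult replicate 3, Dsc3 became 0.15, 0.00840 and 0.0023, Dsg3 0.15, 0.0040 and 0.0016, Pkp1 0.21, 0.073 and 0.074, and Dsg2 0.31, 0.17 and 0.059; without aged replicate 2, Pkp1 was 0.063 and Dsg2 0.042; without aged replicate 1, Krt1 was -0.036 and Evpl -0.15. With 1 library left out, values ran from -0.53 to 1.05 for Krt35 (adult against melanoblasts) and, aged against adult, from -0.37 to 0.0023 for Dsc3, -0.38 to 0.0016 for Dsg3, -0.34 to 0.074 for Pkp1, -0.11 to 0.059 for Dsg2, -0.036 to 1.28 for Krt1 and -0.15 to 0.58 for Evpl.

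Deviations from the group mean were correlated between same-numbered libraries. The values were -0.080, 0.20 and -0.044 for newborn with adult libraries. They were 0.049 and 0.059 for adult with aged, and -0.052 and 0.027 for newborn with aged. Differently numbered newborn and adult libraries ran from -0.24 to 0.28. The labels name no shared animal, litter or day. So few correlations cannot decide whether the numbers pair the samples, and with 2 aged libraries their deviations mirror each other by construction. With the replicate block, 29 genes rose in adult McSC (27 of the 30), 1 gene, Krt7, rose and 0 fell in aged against adult (median 0.49), and 43 rose in aged against melanoblasts (median 2.38); Krt35, adult against melanoblasts, became 0.20, and Dsg1a, aged against adult, -0.15.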

Other observations

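The pattern of Krt8, Krt18 and Krt19 was followed through all 31961 genes tested, by a rule chosen after these values were seen: the same 2 libraries highest, each at least 2 times the third, and the top one at 5 CPM or more. Only 6 genes met it, and 3 of them were those keratins. The other 3 were Cldn4, a claudin of simple epithelia, at 15.2 and 6.12 CPM in adult replicates 2 and 4 and at most 1.94 CPM elsewhere, Wfdc18, a secreted protease inhibitor, at 22.4 and 10.6 CPM and at most 1.80 CPM elsewhere, and Lif, a cytokine, at 14.5 and 7.83 CPM and at most 3.56 CPM elsewhere. The source of this pattern was not tested.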
